A study of Mus musculus with 6 samples.

Results

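The genes described here are those whose symbol starts with Klhl, Kbtbd or Btbd followed by a digit, the kelch and BTB gene family. The platform annotation gave 53 of them among 18193 genes, namely 33 Klhl, 9 Kbtbd and 11 Btbd genes, on 98 probe sets. The family was chosen because Klhl13 was among the largest increases of the same comparison that is reported below, so the values of Klhl13 are given as a description without a test. The other 52 genes were taken by name alone. Expression was measured on 6 Affymetrix mouse arrays. There were 3 arrays of intestinal cells sorted for CCK-EGFP fluorescence and 3 of non-EGFP intestinal cells, and all cells came from adult CCK-EGFP transgenic mice on the Swiss Webster background. The non-EGFP cells therefore carried the transgene as well. EGFP is the enhanced green fluorescent protein, driven here so that it reports cholecystokinin (Cck), the satiety hormone of enteroendocrine I cells. The part of the intestine is not stated in the labels, and nothing says that replicates were separate animals. The p-values therefore reflect the spread among these 6 samples, which may be technical.

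Kelch and BTB proteins are best known as adaptors of cullin-3 ubiquitin ligases. The BTB domain binds the cullin, and in the Klhl and most Kbtbd proteins a propeller of kelch repeats holds the substrate, which the ligase then marks with ubiquitin for degradation or for a change of activity or location. Btbd proteins carry a BTB domain without kelch repeats, and not all of them are established ligase adaptors. Individual adaptors act in cell division, vesicle coat assembly, insulin signalling, ion transport, muscle and neurons.

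Values are log2 intensities from robust multi-array averaging (RMA), where 1 unit is a doubling. If several probe sets measured a gene, the one brightest on average over the 6 arrays stands for it. The brightness of different probe sets does not rank transcripts. A background level of 4.60, the 95th percentile of the means of 71 olfactory and vomeronasal receptor genes, marks where a mean is no longer distinct from unexpressed genes. Of the 52 genes other than Klhl13, 37 had both group means above this level, 3 had a mean below it in 1 group and 12 in both. Of 8 enteroendocrine markers, 8 were higher in CCK-EGFP cells (limma). Cck, by whose reporter the cells were sorted, is 1 of them. The marker mean was 12.80, 12.66 and 12.44 on the CCK-EGFP arrays, against 7.67, 7.74 and 7.98 on the non-EGFP arrays. Chgb (11.57) and Chga (10.53) were bright in non-EGFP cells too, while Pax6 (4.98) and Syp (5.11) were near background there. Markers of other cells were present on the CCK-EGFP arrays too. The mean of 6 enterocyte markers was 13.10, 13.08 and 13.57 there, against 13.81, 13.80 and 13.79 in non-EGFP cells. CCK-EGFP replicate 3 had a T and NK lymphocyte marker mean of 11.49, against 9.29 and 10.21 on the other 2 CCK-EGFP arrays. Its B and plasma cell marker mean was 9.34, against 5.91 and 6.80. In non-EGFP cells the T and NK mean was also highest on replicate 3, at 9.99, 10.55 and 11.31. Paneth (8.50, 7.52 and 10.18) and myeloid (6.71, 7.79 and 8.55) marker means were highest on CCK-EGFP replicate 3 among the CCK-EGFP arrays too. Of the other marker lists, 2 of 4 goblet genes and 1 of 4 muscle genes were lower in CCK-EGFP cells, 1 of 3 tuft genes and 1 of 3 neuron and glia genes were higher, and 0 of 2 Paneth, 0 of 4 myeloid, 0 of 4 stroma, 0 of 6 enterocyte, 0 of 5 T and NK and 0 of 4 B and plasma cell genes passed (limma). At an unadjusted p under 0.05, 3 enterocyte, 3 myeloid, 3 goblet and 2 muscle genes were lower, and 1 stroma and 1 tuft gene were higher. Of the 3 neuron and glia genes, 1 was then higher and 2 were lower. For the Paneth, T and NK and B and plasma cell lists 0 genes passed.

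The first listed promoters of the 3 genes with the greatest differences, and of Klhl9, the gene closest to Klhl13 in the family and not past the test below, are shown because the first 3 were near background in non-EGFP cells. They run from 250 bases before to 50 after a RefSeq transcription start and are printed 5′ to 3′ on the gene's strand. Capitals mark the GC-box letters GGGCGG or CCGCCC and the E-box letters CAGATG or CATCTG and CAGCTG, which basic helix-loop-helix factors such as Neurod1 can bind. No base lay in more than 1 of these motifs in the sequences shown.
Klhl13 promoter (GRCm38.p6, chrX:23365033-23365332, minus strand): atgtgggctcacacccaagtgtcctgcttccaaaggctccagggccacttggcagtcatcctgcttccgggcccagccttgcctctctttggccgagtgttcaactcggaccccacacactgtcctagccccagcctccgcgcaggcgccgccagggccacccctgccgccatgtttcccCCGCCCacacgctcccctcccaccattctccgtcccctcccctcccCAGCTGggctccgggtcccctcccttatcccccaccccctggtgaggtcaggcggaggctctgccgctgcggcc
Klhl29 promoter (GRCm38.p6, chr12:5375633-5375932, minus strand): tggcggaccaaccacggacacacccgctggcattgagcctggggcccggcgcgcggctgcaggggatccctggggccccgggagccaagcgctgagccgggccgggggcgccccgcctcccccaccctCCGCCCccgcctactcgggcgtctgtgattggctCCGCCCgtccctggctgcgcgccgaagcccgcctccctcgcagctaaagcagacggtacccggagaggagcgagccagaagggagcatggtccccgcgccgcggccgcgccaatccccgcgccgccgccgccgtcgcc
Klhl32 promoter (GRCm38.p6, chr4:24851075-24851374, minus strand): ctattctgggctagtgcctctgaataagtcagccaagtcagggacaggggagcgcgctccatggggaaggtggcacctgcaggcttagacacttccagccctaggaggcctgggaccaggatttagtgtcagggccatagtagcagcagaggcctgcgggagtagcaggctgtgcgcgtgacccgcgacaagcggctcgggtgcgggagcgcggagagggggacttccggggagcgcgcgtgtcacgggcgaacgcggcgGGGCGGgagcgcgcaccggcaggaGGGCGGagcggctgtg
Klhl9 promoter (GRCm38.p6, chr4:88722459-88722758, minus strand): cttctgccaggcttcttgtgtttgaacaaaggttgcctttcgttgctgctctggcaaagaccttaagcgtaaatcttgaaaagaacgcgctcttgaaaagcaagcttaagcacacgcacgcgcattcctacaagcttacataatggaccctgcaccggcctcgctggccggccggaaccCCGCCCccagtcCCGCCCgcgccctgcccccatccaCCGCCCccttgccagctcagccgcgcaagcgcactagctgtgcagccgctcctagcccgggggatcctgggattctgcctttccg
RefSeq lists further starts for Klhl13, and the array does not tell which start was in use. The 4 sequences held 15, 40, 27 and 22 CG dinucleotides in the order given. The GC-box occurred 1 time in Klhl13, 2 times in Klhl29, 2 times in Klhl32 and 3 times in Klhl9, and the E-box CAGCTG was found in Klhl13 alone among the 4. Of the 53 genes 44 had an entry in the promoter table. Among these 32 (72.7%) held a GC-box, against 35.9% of the first listed promoters of 27025 genes. The E-box CAGCTG was in 10 of them (22.7%, against 16.1%), and CAGATG or CATCTG in 2 (4.55%, against 17.2%). The median number of CG dinucleotides was 21 in the family and 7 over those 27025 genes, which outnumber the 18193 compared on the arrays. The motif and CG numbers are counts of letters, not binding sites.

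Klhl13 was bright in CCK-EGFP cells and at background in non-EGFP cells. It read 10.45, 10.32 and 10.80 on the CCK-EGFP arrays, against 2.42, 2.79 and 3.05 on the non-EGFP arrays. The groups lay far apart and each was tight. The mean was 10.52 ± 0.25 in CCK-EGFP cells, against 2.75 ± 0.32 in non-EGFP cells (SD, n = 3 each), and against the background level the CCK-EGFP mean was at least 60.7-fold higher. Its second probe set pointed the same way with a smaller step, at 7.23, 7.31 and 7.81 in CCK-EGFP cells, against 3.93, 3.95 and 3.77 in non-EGFP cells, a difference of 3.57 on the log2 scale. In human cells KLHL13, KLHL9 and KLHL21 are each reported as cullin-3 adaptors for the mitotic kinase Aurora B. In pooled cells a change in the number of cells of a type and a change in RNA per cell cannot be told apart.

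The genes of the other 2 reported Aurora B adaptors were measurable in both groups, and 1 of them, Klhl21, passed the test. Klhl9 was bright in both groups, at 10.99, 10.84 and 10.85 in CCK-EGFP cells, against 10.03, 10.70 and 10.67 in non-EGFP cells. The groups do not overlap, but the step is small next to the spread of the non-EGFP arrays. The difference was 0.43 on the log2 scale (95% interval -0.14 to 1.00) and did not pass (limma, Benjamini-Hochberg adjusted p = 0.217). Klhl21 read 8.32, 8.49 and 7.89 in CCK-EGFP cells, against 5.69, 6.68 and 7.28 in non-EGFP cells, a rise of 1.69 (SE 0.42, limma adjusted p = 0.0329). That call was lost once replicate numbers were a block (limma adjusted p = 0.0562), and without any 1 of the 3 CCK-EGFP arrays or non-EGFP replicate 2 (up to 0.113), and its second probe set, below the background level in both groups, differed by -0.06. Aurkb, the kinase itself, is named here with its values known. It was close to background in CCK-EGFP cells, at 4.37 ± 0.58 against 5.19 ± 1.46 in non-EGFP cells (SD, n = 3 each, limma adjusted p = 0.416).

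**Figure D1:**
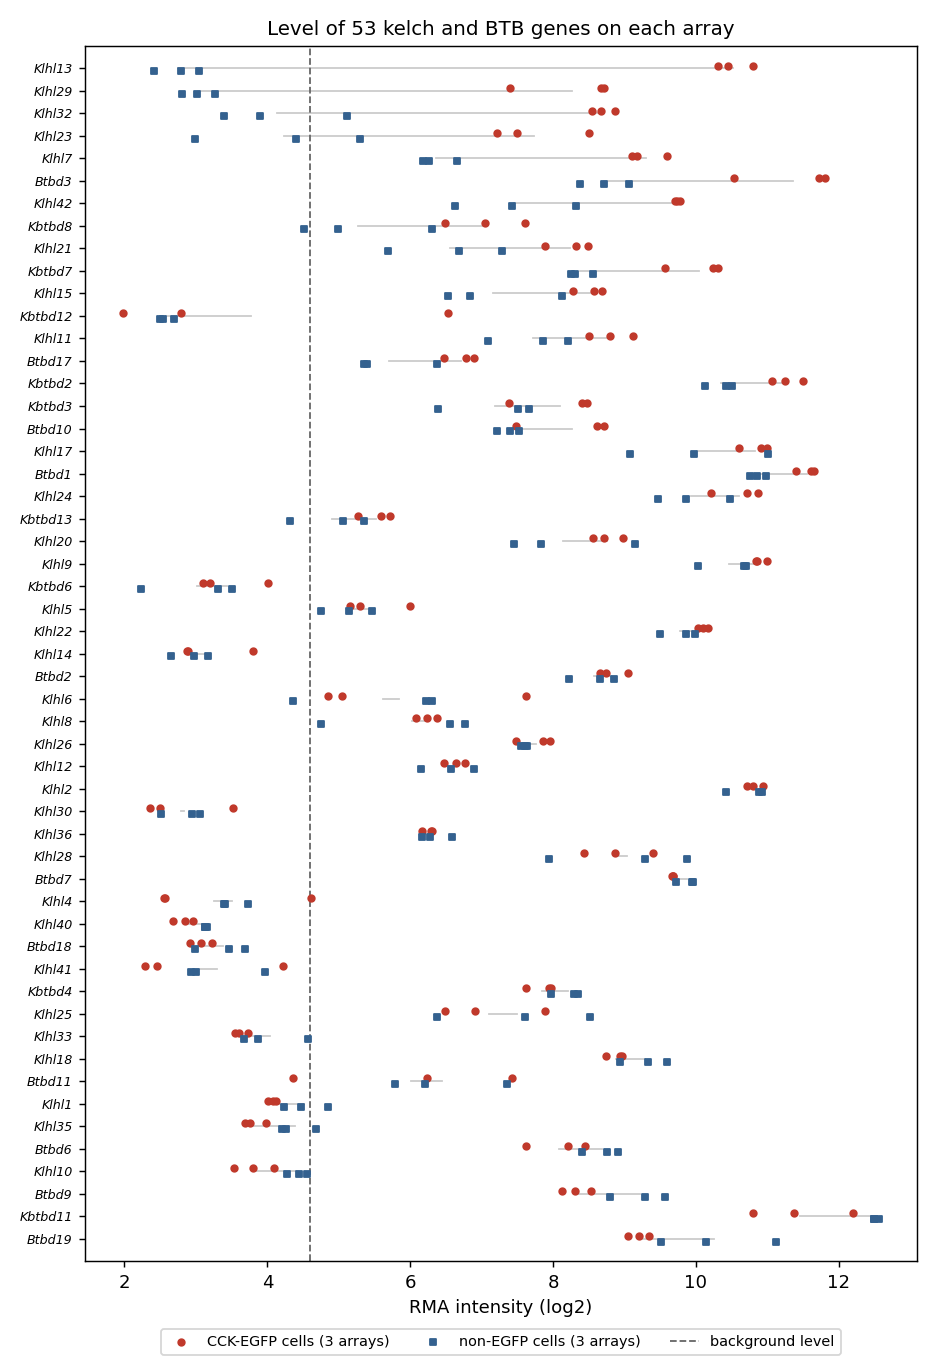
RMA intensity (log2, horizontal axis) of the 53 kelch and BTB genes on each array, ordered from the greatest positive to the greatest negative difference. Red circles are the 3 CCK-EGFP arrays, blue squares the 3 non-EGFP arrays, grey lines join the group means and the dashed line is the background level of 4.60. Klhl13 and Klhl29 lie below that line on each non-EGFP array and above 7 on each CCK-EGFP array.

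Of the 52 genes other than Klhl13, 11 were higher and 1 was lower in CCK-EGFP cells, and 40 did not pass (limma, Benjamini-Hochberg adjusted p under 0.05 over all 18193 genes). Over all genes 14.0% were called higher and 10.2% lower, 24.1% in either direction. As the family was chosen from this comparison, nothing is read from the difference between its share of calls (21.2% higher and 1.92% lower) and these. The median difference was 0.24 on the log2 scale over the 52 genes and -0.17 over all genes, or 0.19 and 0.00 once every mean under the background level was set to that level. Of the 12 called genes, 7 kept their call when any 1 array was left out. Without CCK-EGFP replicate 1 or 2 the genes called higher numbered 7 each. The 1 lower call, Btbd9, was kept only when non-EGFP replicate 3 was left out. Other genes were then called lower in some fits, Klhl4 and Kbtbd11 without CCK-EGFP replicate 3 and Btbd19 without non-EGFP replicate 2. A block for the replicate number, whose meaning the labels do not state, gave 8 genes higher and 0 lower. At an unadjusted p under 0.05 in the test without the block 15 were higher and 5 lower.

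Besides Klhl13, 3 Klhl genes had a non-EGFP mean below the background level. Klhl29 read 8.71, 8.67 and 7.40 in CCK-EGFP cells, against 3.27, 2.80 and 3.01 in non-EGFP cells. All 3 CCK-EGFP arrays were high, replicate 3 less so. Measured from the background level, Klhl29 was at least 12.6-fold higher (log2 difference as fitted 5.23, SE 0.39, limma adjusted p = 0.000492). Klhl32 read 8.54, 8.67 and 8.86 in CCK-EGFP cells, against 5.11, 3.90 and 3.40 in non-EGFP cells. Only non-EGFP replicate 1 was above the background level. The rise was at least 17.1-fold (log2 difference as fitted 4.56, SE 0.44, limma adjusted p = 0.00124). Of its other 2 probe sets 1 gave a difference of 5.17 and the other, below the background level in both groups, gave 0.09. Klhl23 read 7.21, 7.50 and 8.50 in CCK-EGFP cells, against 4.40, 2.99 and 5.30 in non-EGFP cells, at least 8.80-fold higher (log2 difference as fitted 3.51, SE 0.63, limma adjusted p = 0.0116). Its spread was wide in both groups, with only non-EGFP replicate 3 above the background level there. Klhl29 and Klhl23 have 1 probe set each.

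The remaining Klhl genes that rose were measurable in both groups. Klhl7, a cullin-3 adaptor mutated in a human retinal degeneration, read 9.59, 9.11 and 9.18 in CCK-EGFP cells, against 6.18, 6.26 and 6.65 in non-EGFP cells. Both groups were tight. It was 7.62-fold higher (log2 difference 2.93, SE 0.23, limma adjusted p = 0.000601), and its second probe set gave 3.15. Klhl42, in human cells the adaptor for the microtubule-severing katanin subunit p60, read 9.74, 9.70 and 9.78 in CCK-EGFP cells, against 6.63, 7.42 and 8.32 in non-EGFP cells. The CCK-EGFP arrays were nearly identical while the non-EGFP arrays were spread, and the gene was 4.86-fold higher (log2 difference 2.28, SE 0.42, limma adjusted p = 0.0122). Katna1, which encodes p60 and was singled out after its values were seen, went the other way, at 10.01 ± 0.13 in CCK-EGFP cells, against 11.01 ± 0.20 in non-EGFP cells (SD, n = 3 each, limma adjusted p = 0.0149), a call lost without CCK-EGFP replicate 2 (0.0682).

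Among the Kbtbd genes, 3 of 9 rose and 0 fell (14.0% of all genes rose and 10.2% fell). At an unadjusted p under 0.05 the counts were 3 and 1. Kbtbd7, which with KBTBD6 forms a human adaptor for the Rac activator TIAM1, read 10.31, 10.24 and 9.57 in CCK-EGFP cells, against 8.31, 8.55 and 8.25 in non-EGFP cells. It was 3.18-fold higher (log2 difference 1.67, SE 0.26, limma adjusted p = 0.0069). Its probe sets ranged from -0.19 to 1.85, the lowest below the background level in both groups, and the one used carries the array maker's suffix for probes that can match related transcripts. The same suffix is on the probe sets used for Klhl7, Klhl17 and Btbd11, but not on the second probe set of Klhl7, which gave 3.15. Kbtbd6, the partner of Kbtbd7, was below the background level in both groups, at 3.43 ± 0.51 in CCK-EGFP cells, against 3.02 ± 0.69 in non-EGFP cells (SD, n = 3 each). Kbtbd8, which acts in neural crest formation in frogs and human cells, read 7.61, 7.05 and 6.48 in CCK-EGFP cells, against 4.99, 4.52 and 6.30 in non-EGFP cells. Its rise of 1.78 (SE 0.52) stood at the threshold (limma adjusted p = 0.0498), was lost with the block (0.0853), and remained in 1 of the 6 fits that left out an array, the one without non-EGFP replicate 3 (up to 0.144 in the others). Its second probe set, below the background level in both groups, differed by 0.03. Kbtbd2, which limits the p85 subunit of phosphoinositide 3-kinase and so tunes insulin signalling in mice, read 11.50, 11.25 and 11.06 in CCK-EGFP cells, against 10.12, 10.42 and 10.51 in non-EGFP cells. The groups are close but do not overlap, and the rise was 1.89-fold (log2 difference 0.92, SE 0.21, limma adjusted p = 0.0251, or 0.0601 with the block). That call was also lost without replicate 1 or 2 of either group (up to 0.0923).

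Among the 11 Btbd genes, 2 rose and 1 fell (14.0% of all genes rose and 10.2% fell). Btbd3, which in the mouse cortex turns dendrites toward active axons, read 11.81, 11.73 and 10.53 in CCK-EGFP cells, against 8.38, 8.71 and 9.06 in non-EGFP cells. It was 6.24-fold higher (log2 difference 2.64, SE 0.39, limma adjusted p = 0.0062). A second probe set gave 3.49 and another, below the background level in both groups, gave -0.57. Btbd1, a topoisomerase I binding protein, read 11.40, 11.65 and 11.61 in CCK-EGFP cells, against 10.75, 10.98 and 10.86 in non-EGFP cells, a rise of 0.69 (SE 0.18, limma adjusted p = 0.0369, or 0.0596 with the block). The groups were both tight, yet no fit that left out 1 of the 6 arrays kept the call (up to 0.131). Btbd9, a gene linked to restless legs syndrome in human genetics, was the only one of the 52 to fall. It read 8.53, 8.31 and 8.13 in CCK-EGFP cells, against 9.29, 9.57 and 8.80 in non-EGFP cells, lower by 1.86-fold (log2 difference -0.89, SE 0.26, limma adjusted p = 0.0479). That call was lost with the block (0.0512), with trend and robust settings (0.0557), and without each array in turn apart from non-EGFP replicate 3 (up to 0.136). Its 3 probe sets all gave a negative difference, between -0.89 and -0.40.

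**Figure D2:**
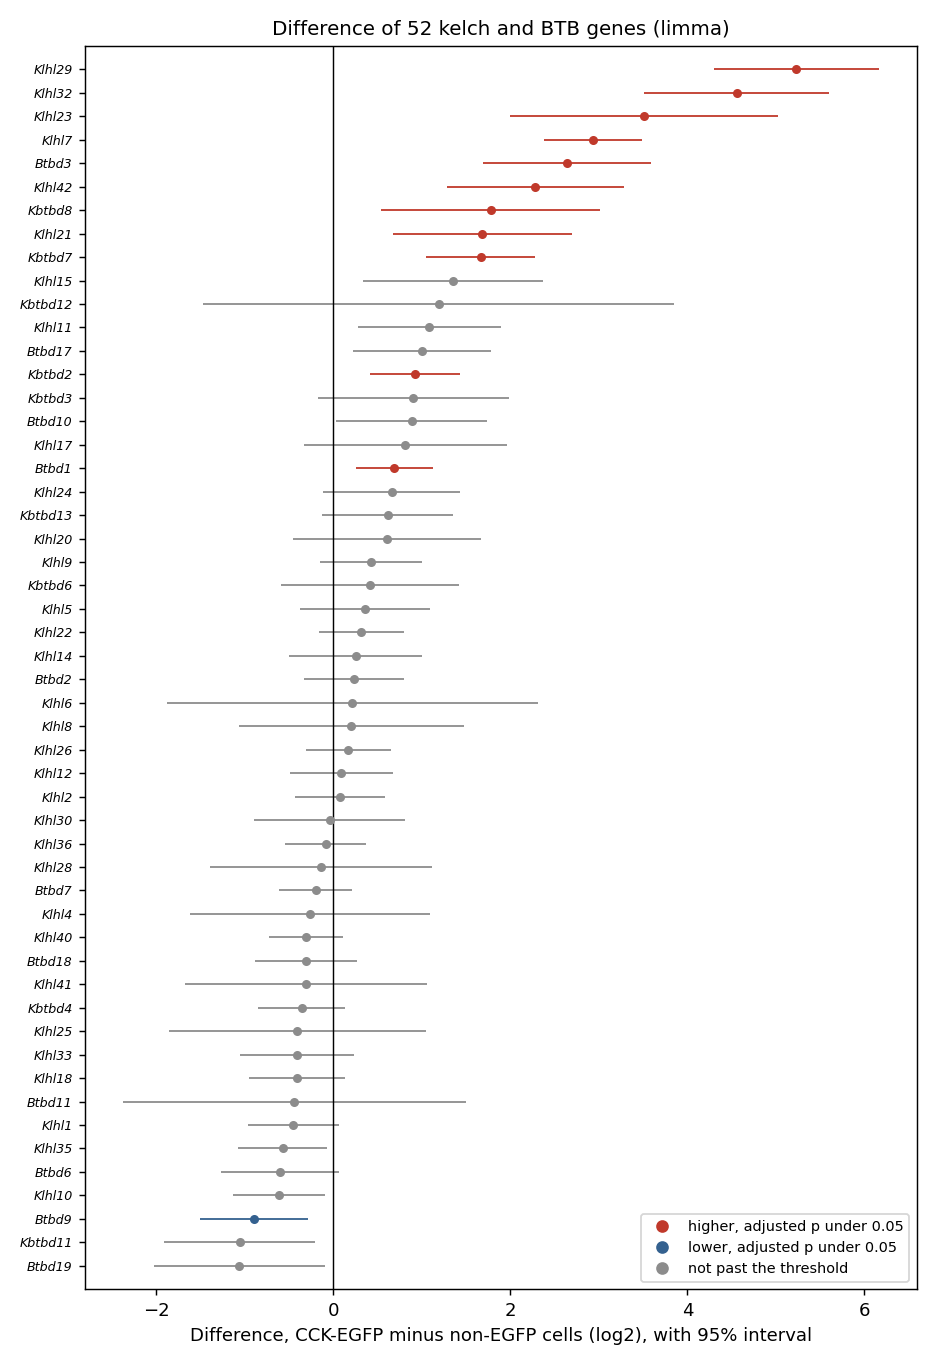
Difference between CCK-EGFP and non-EGFP cells (log2, horizontal axis) for the 52 genes other than Klhl13, with bars for the 95% interval of limma. Red points are the 11 genes called higher, blue the 1 called lower and grey the 40 not past the threshold. Means below the background level enter as measured.

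Of the 40 genes that did not pass, 21 had a positive and 19 a negative difference. A missing call does not show equal levels. Some lay close to the threshold. Klhl15, in human cells an adaptor for a regulatory subunit of protein phosphatase 2A, read 8.69, 8.28 and 8.58 in CCK-EGFP cells, against 6.84, 8.12 and 6.53 in non-EGFP cells (log2 difference 1.35, limma adjusted p = 0.0623), with 1 high non-EGFP array. It passed without that array, non-EGFP replicate 2, as did Btbd17 and Klhl20, while Btbd10 passed without CCK-EGFP replicate 3 (limma adjusted p = 0.01, 0.02, 0.0412 and 0.0143). Klhl11 (1.09, limma adjusted p = 0.0593) and Btbd17 (1.00, limma adjusted p = 0.067) did not overlap between the groups either. Kbtbd3 differed by 0.90 and passed only with the replicate number as a block (limma adjusted p = 0.176, or 0.0366 with the block). Btbd10 (0.89), the actin-binding Klhl17 (0.81), Klhl24 (0.66), which is mutated in a human skin fragility disorder, Kbtbd13 (0.62) and Klhl20 (0.60) overlapped between the groups. The second probe set of Kbtbd13 did not overlap and gave 1.43, with means of 5.30 in CCK-EGFP and 3.87 in non-EGFP cells. It passed when every probe set was fitted alone (limma adjusted p = 0.0244). Probe sets disagreed in sign for Klhl11 (-0.82 to 1.09), Klhl24 (-0.52 to 0.66) and Klhl20 (-1.16 to 0.60).

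Kbtbd11 and Btbd19 had the greatest negative differences and did not pass either. Kbtbd11 read 10.80, 11.37 and 12.19 in CCK-EGFP cells, against 12.49, 12.56 and 12.48 in non-EGFP cells. The CCK-EGFP arrays were lower and spread while the non-EGFP arrays were nearly equal, and the difference was -1.06 (95% interval -1.91 to -0.20, limma adjusted p = 0.074). Its 4 probe sets ranged from -1.28 to -0.29. The CCK-EGFP array with the highest reading, replicate 3, was also the one with the highest enterocyte marker mean, and the part of that in the result was not tested. Without that array the gene passed (log2 difference -1.43, limma adjusted p = 0.0165), as it did with trend and robust settings (0.0426). Btbd19 read 9.05, 9.21 and 9.34 in CCK-EGFP cells, against 11.11, 9.52 and 10.14 in non-EGFP cells (log2 difference -1.06, limma adjusted p = 0.100, or 0.0463 without non-EGFP replicate 2). With each array centred on its median both genes were called lower (limma adjusted p = 0.0326 and 0.0487), as were 2 genes below the background level, Klhl35 and Klhl10 (0.0418 and 0.0339).

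Further genes were measurable in both groups of cells with small differences. Klhl2, in human cells an adaptor for WNK kinases, read 10.94, 10.80 and 10.71 in CCK-EGFP cells, against 10.41, 10.88 and 10.93 in non-EGFP cells, a difference of 0.08 (95% interval -0.43 to 0.58, limma adjusted p = 0.798). The arrays of the 2 groups are interleaved, and median centring of the arrays turned the difference to -0.18. Its second probe set differed by 0.82 (8.27 in CCK-EGFP and 7.45 in non-EGFP cells) and did not pass when fitted alone (limma adjusted p = 0.328). Klhl22, in human cells an adaptor for DEPDC5, differed by 0.32 (-0.16 to 0.80), Btbd7, which takes part in epithelial branching in mouse, by -0.20 (-0.61 to 0.21), and Klhl18 by -0.41 (-0.95 to 0.13), all 3 with intervals that include 0. Their dimmer probe sets did not all follow: the second gave -0.99 for Klhl22 and -1.13 for Klhl18, and those of Btbd7 ranged from -0.87 to -0.20. As the mean of its probe sets Klhl18 was called lower (limma adjusted p = 0.0195) and Klhl22 differed by -0.34. Klhl12, the adaptor that in human cells marks the COPII coat protein SEC31 during collagen export, differed by 0.09 (-0.49 to 0.67). Btbd2 (0.24), Klhl26 (0.17), Klhl36 (-0.09), Kbtbd4 (-0.36), which targets the CoREST repressor in human tumours, and Btbd6 (-0.60), a neurogenesis gene in zebrafish, did not pass. Wider spreads were seen for Klhl8 (0.20, with probe sets at 0.20 and 2.29), Klhl28 (-0.14), Klhl25 (-0.40), in human cells an adaptor for ATP citrate lyase, and Btbd11 (-0.44). The probe sets of Klhl28 ranged from -0.14 to 0.83 and those of Btbd11 from -0.44 to 0.21. For Klhl25 the second probe set gave -1.17 without overlap between the groups and did not pass when fitted alone (limma adjusted p = 0.0585). The second probe set of Klhl8 read 6.66, 6.48 and 6.38 in CCK-EGFP cells, against 3.91, 3.97 and 4.77 in non-EGFP cells. It passed when every probe set was fitted alone (limma adjusted p = 0.00425), so the small difference of Klhl8 depends on the probe set used. Klhl5, near background, differed by 0.36.

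Of the genes that did not pass, 12 had both group means below the background level, and several of these belong to tissues other than gut epithelium. Klhl40 and Klhl41, which keep muscle filaments stable and are mutated in nemaline myopathy, stood at 2.83 ± 0.14 and 2.99 ± 1.06 in CCK-EGFP cells, against 3.13 ± 0.01 and 3.30 ± 0.58 in non-EGFP cells (SD, n = 3 each). Muscle markers were low as well, with means over 4 genes of 3.90, 3.82 and 3.73 in CCK-EGFP cells, against 4.70, 4.48 and 4.31 in non-EGFP cells. The male germ cell genes Klhl10 (3.81 and 4.42) and Btbd18 (3.07 and 3.38) were below the level in CCK-EGFP and non-EGFP cells, as were Klhl1 (4.07 and 4.52), Klhl4 (3.25 and 3.51), Klhl14 (3.19 and 2.93), Klhl30 (2.79 and 2.83), Klhl33 (3.63 and 4.04), Klhl35 (3.81 and 4.38), Kbtbd6 and Kbtbd12. Kbtbd12 read 6.53 on CCK-EGFP replicate 1 and 1.98 to 2.78 on the other 5 arrays.

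Klhl6, a gene of B cells needed for germinal centre formation in mice, varied between arrays more than between groups. It read 4.84, 5.05 and 7.62 in CCK-EGFP cells, against 4.35, 6.21 and 6.31 in non-EGFP cells (log2 difference 0.21, 95% interval -1.88 to 2.31, limma adjusted p = 0.864). Without CCK-EGFP replicate 3 the difference was -0.68. That array also had the highest B and plasma cell marker mean, 9.34, against 5.91 and 6.80 on the other CCK-EGFP arrays and, in non-EGFP cells, 7.93, 7.15 and 8.27, and the part of these markers in the result was not tested. Of the 11 genes called higher, 6 had their lowest CCK-EGFP reading on replicate 3, among them Klhl29, Btbd3 and Kbtbd7. Without that array the differences of these named genes were 5.66, 3.06 and 1.91. Klhl32, Klhl23 and Klhl42, also called higher, had their highest CCK-EGFP reading there (8.86, 8.50 and 9.78), as did Klhl13 (10.80). The same share over all genes was not counted.

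**Figure D3:**
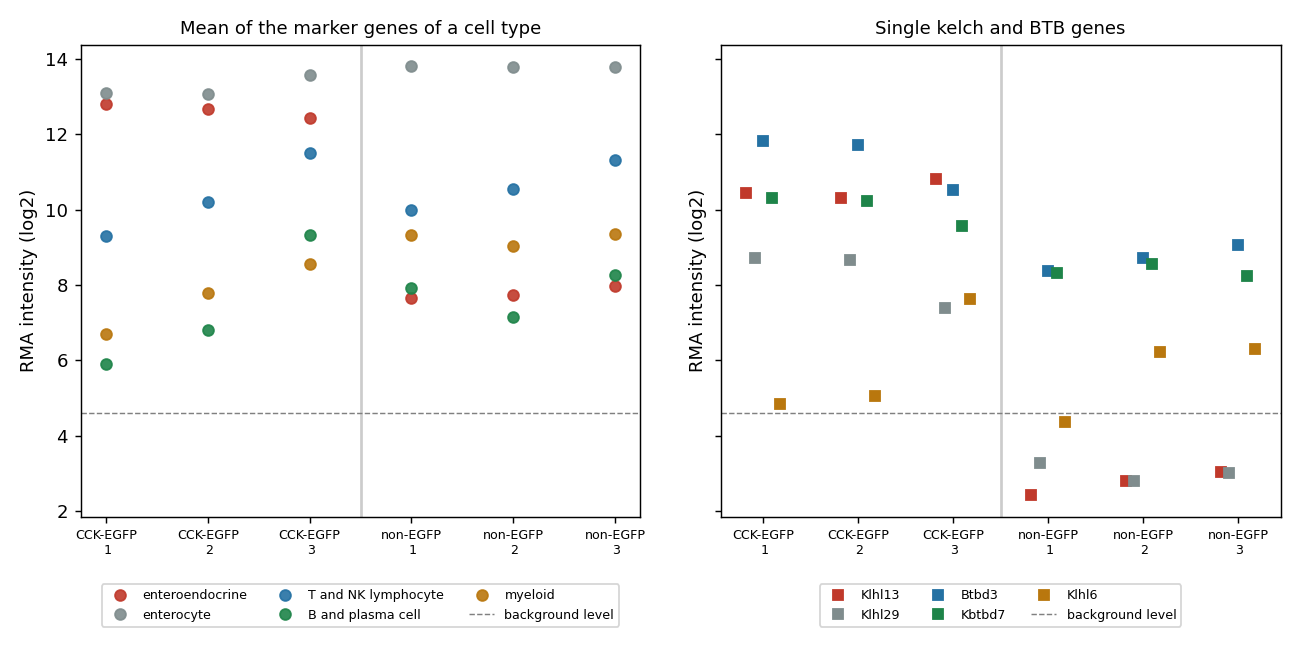
RMA intensity (log2, vertical axis) on each array, CCK-EGFP arrays left and non-EGFP arrays right of the grey line. The left panel shows means of marker genes by cell type and the right panel 5 kelch and BTB genes, shifted sideways for legibility, with the background level dashed. On CCK-EGFP replicate 3 the lymphocyte markers, Klhl6 and Klhl13 are at their highest of the 3 CCK-EGFP arrays, and Klhl29, Btbd3 and Kbtbd7 at their lowest.

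Of the ligase that these adaptors serve, Cul3, the scaffold, was bright in both groups, while the single probe set of its RING subunit Rbx1 was below the background level in both. Cul3, singled out as the common partner, read 11.37 ± 0.12 in CCK-EGFP cells, against 11.17 ± 0.07 in non-EGFP cells (SD, n = 3 each, log2 difference 0.19, limma adjusted p = 0.423). Rbx1, also singled out with its values known, read 3.80 ± 0.47 in CCK-EGFP cells, against 3.88 ± 0.90 in non-EGFP cells (SD, n = 3 each, limma adjusted p = 0.908). Of 25 measured genes for the cullin-3 core, its activation by the ubiquitin-like protein Nedd8 and its removal by the COP9 signalosome, 2 were higher and 0 lower (14.0% and 10.2% over all genes), with a median difference of 0.24 against -0.17 over all genes. At an unadjusted p under 0.05 the counts were 5 and 3. Rnf7, a RING subunit that pairs with cullin-5, rose by 0.95 (SE 0.19, limma adjusted p = 0.0169) and lost its call without replicate 1 or 2 of CCK-EGFP cells or replicate 2 of non-EGFP cells (up to 0.0714). Senp8, the protease that matures and removes Nedd8, rose by 1.70 (SE 0.49, limma adjusted p = 0.0483, or 0.0613 with the block), and lost its call without non-EGFP replicate 3 or any of the CCK-EGFP arrays (up to 0.14). Nedd8 (0.33, limma adjusted p = 0.209) and the conjugating enzyme Ube2f (-0.82, limma adjusted p = 0.0754) did not pass. Cand1, the cullin exchange factor, and Gps1, a signalosome subunit, were singled out after their values were seen. They did not pass (limma adjusted p = 0.0544 and 0.05995) but did so with the block (0.0435 and 0.045), and Cand1 also without non-EGFP replicate 3 (0.0276). Among the 7 other cullins, Cul9 rose by 2.0 and Cul4b by 1.18 (limma adjusted p = 0.0306 and 0.0069), while Cul1 (-0.31) and Cul4a (0.34) did not pass, and the median over the 7 was 0.47. The call of Cul9 was lost without non-EGFP replicate 1 or 3 or any of the CCK-EGFP arrays (up to 0.1) and with a second quantile normalization (0.0524).

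BTB proteins outside the naming rule were called at shares to be read against 14.0% higher and 10.2% lower over all genes. Of 4 measured BTB-kelch genes with other names, with a median difference of -0.12, 1 rose, Enc1, a neuronal actin-binding member, which read 11.30, 10.66 and 10.51 in CCK-EGFP cells, against 7.78, 10.05 and 8.74 in non-EGFP cells. Its rise of 1.97 lay at the threshold (limma adjusted p = 0.04996, or 0.077 with the block), and was kept in 1 of the 6 fits without an array, the one without non-EGFP replicate 2 (up to 0.144 in the others). Ivns1abp (-0.15) and Lztr1 (-0.24) did not pass, nor did Keap1, the oxidative stress sensor, singled out as the best known of the list (-0.10, limma adjusted p = 0.749). Of 19 other BTB adaptors 3 rose and 3 fell, counts close to those shares, with a median of 0.01. Kctd17, which in human cells promotes the removal of trichoplein in ciliogenesis, was the clearest, at 8.28 ± 0.26 in CCK-EGFP cells, against 4.75 ± 0.59 in non-EGFP cells (SD, n = 3 each, log2 difference 3.53, SE 0.33, limma adjusted p = 0.00119). Ibtk rose by 1.49 (limma adjusted p = 0.00496). Kctd5 fell by 1.29 (limma adjusted p = 0.0295) and Kctd21 fell by 1.29 (0.017), and these 2 calls were lost without single arrays of both groups (up to 0.0835 and 0.0718). Spop (0.59) and Shkbp1 (-0.48) did not pass.

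Of 27 genes for reported substrates and partners, 4 rose and 4 fell, which is near the 14.0% and 10.2% over all genes, with a median of -0.02. At an unadjusted p under 0.05 the counts were 6 and 7. Wnk4, a kinase of salt transport that KLHL2 and KLHL3 target in human cells, read 10.90, 10.98 and 10.64 in CCK-EGFP cells, against 5.86, 5.93 and 7.48 in non-EGFP cells. It was higher on every CCK-EGFP array (log2 difference 4.42, SE 0.45, limma adjusted p = 0.00152). Klhl2 differed by 0.08 on the probe set used and by 0.82 on its second, and Klhl3 was not among the 53 genes. Dapk1, the death-associated kinase that KLHL20 targets in human cells, stood at 9.56 ± 0.16 in CCK-EGFP cells, against 4.96 ± 1.13 in non-EGFP cells (SD, n = 3 each, log2 difference 4.59, SE 0.54, limma adjusted p = 0.0027). Non-EGFP replicates 1 and 2 of Dapk1 were 4.05 and 4.61, below and at the background level. Pml, also a KLHL20 target in human cells, fell by 1.11 (limma adjusted p = 0.0122), a call lost without replicate 1 or 2 of CCK-EGFP cells (up to 0.0582). Acly, ATP citrate lyase, rose by 1.11 (limma adjusted p = 0.0227), lost its call without any array but non-EGFP replicate 3 (up to 0.0776), and differed by 0.38 as the mean of its probe sets. Dvl1 (-0.16) and Gabarap (-0.08), both bright in both groups, did not pass. The phosphoinositide 3-kinase subunit Pik3r1, singled out as the target of Kbtbd2, differed by -0.02 (limma adjusted p = 0.961). Arrays measure transcripts, so none of these values speaks to the amount of a substrate protein.

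**Figure D4:**
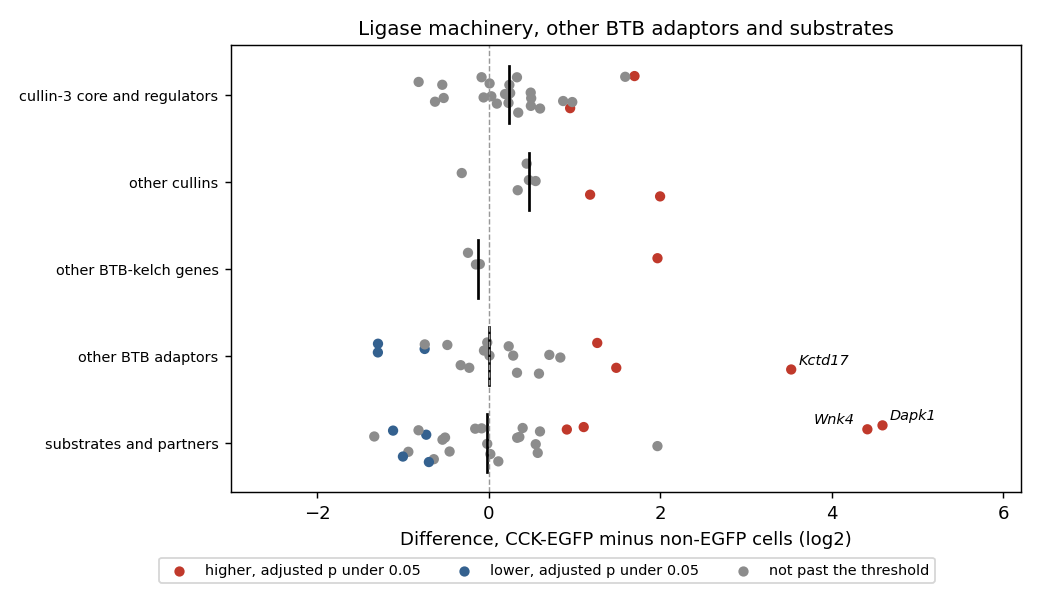
Difference between CCK-EGFP and non-EGFP cells (log2, horizontal axis) for 82 genes of the ligase machinery, other cullins, other BTB proteins and reported substrates. Each point is a gene, red for higher, blue for lower and grey for not past the threshold, and black bars are list medians. Dapk1 (4.59), Wnk4 (4.42) and Kctd17 (3.53) lie apart from the rest.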

How the data were processed

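RNA of the sorted cells was amplified with a kit for very small inputs before hybridisation, per the labels' protocols. The authors deposited 45101 probe sets as log2 intensities, and RMA was used per the submitters' processing notes (version not given in the sources used here). RMA is meant to equalise distributions between arrays, so a broad shift between groups can be reduced. The deposited values were not fully equal between the groups. The medians of the CCK-EGFP arrays lay between 5.66 and 5.72, those of the non-EGFP arrays between 5.37 and 5.55.

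Probe sets were named by the annotation deposited for the platform, parts of which may be outdated. It gave 1 symbol to 34945 of them and several to 932, which were left out. Of 34741 matched by gene identifier to a mouse RefSeq table (GRCm38.p6), 0 changed symbol. The comparison used R 4.3.3 and limma 3.58.1 (lmFit, eBayes, two-sided, Benjamini-Hochberg over 18193 genes). The code was also run on simulated data with independent arrays, which does not bear on the calls reported here. Figures used Python 3.11.15 and matplotlib 3.10.9. 3 arrays per group limit the precision.

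The family and gene lists were chosen with earlier results of these data known. All 53 members are named, with array values for Klhl13, called members and the 5 brightest. From each of 5 pathway lists (82 of 85 genes measured, the others not analysed here) up to 4 called genes by size and up to 2 uncalled by mean level are named, other names being marked as singled out. Marker lists held 47 measured genes of 11 cell types. Same-numbered arrays deviated together, weakly, from their group means (r across genes 0.27, 0.159 and 0.219, other pairs -0.245 to -0.0109). Deviations cancel out within a group, so positive same-numbered pairs push the other pairs negative. The labels do not say what a number marks, and the replicate number was fitted as a block only as an alternative. The reported calls come from the fit without it. The alternatives were that block, a filter on dim genes, trend and robust eBayes, median centring, a second quantile normalization, the mean of a gene's probe sets and leaving out each array.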

Additional observations from a re-analysis of the deposited data

How the results depend on the processing

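The 12 alternatives kept 7 to 12 of the 12 called genes, and median centring turned the sign of 6 genes that were not called. Counts hide some exchange of genes: 1 gene was lower with trend and robust settings, Kbtbd11, and 1 with the mean of all probe sets, Klhl18, in place of Btbd9. The number of family genes called higher, 11 as reported, was 8 to 11 under the 6 alternatives that keep all arrays, and the number called lower, 1 as reported, was 0 with the replicate block and 5 with arrays centred on their medians. Without each array in turn the counts ran from 7 to 10 higher and from 0 to 2 lower. Of the 12 called genes, 7 also passed with the replicate block. For the ligase and substrate lists, 12 higher and 7 lower as reported, the counts without each array ran from 5 to 10 higher and from 1 to 6 lower, and 13 were lower with centred arrays. Centring moved the median difference of all genes from -0.17 to -0.42, and the calls over all genes to 2101 higher and 3605 lower, against 2540 and 1851 as reported. The difference of Klhl13 ranged from 5.67 (mean of its probe sets) to 7.92.

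None of the genes whose sign turned had been called. With centred arrays, the sign turned for Btbd2 (-0.017), Klhl6 (-0.038), Klhl8 (-0.0496), Klhl26 (-0.084), Klhl12 (-0.16), Klhl2 (-0.18). With a second quantile normalization, the sign turned for Klhl8 (-0.0032), Klhl26 (-0.0012), Klhl12 (-0.18), Klhl30 (0.21). With the mean of all probe sets, the sign turned for Klhl20 (-0.28), Klhl22 (-0.34), Klhl28 (0.31). Leaving out single arrays turned the sign for Kbtbd12 (-0.19 to 2.08), Klhl14 (-0.051 to 0.41), Klhl6 (-0.68 to 0.71), Klhl8 (-0.43 to 0.57), Klhl12 (-0.10 to 0.27), Klhl2 (-0.086 to 0.17), Klhl30 (-0.41 to 0.17), Klhl36 (-0.18 to 0.033), Klhl28 (-0.68 to 0.28), Klhl4 (-0.95 to 0.084), Klhl41 (-0.92 to 0.0399), Klhl25 (-0.97 to 0.11), Btbd11 (-1.15 to 0.38).

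The cause of these changes was not tested, beyond fewer samples where an array was left out. Intensities near the background level of 4.60 limit what can be said of 12 family genes.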
